A study of Mus musculus with 28 samples.

Results

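The comparison described here is between peripheral NSCs (pNSCs) of the tail and pNSCs of the lung, which are neural stem cell lines grown from tissue outside the central nervous system. Its members are the 4 samples labelled Tail-pNSC replicates 1 and 2 and Lung-pNSC replicates 1 and 2, of 28 samples in 11 groups in the whole series. Per the study's methods, both came from Nes-GFP mice, in which GFP is driven by *Nestin* regulatory elements, and all groups are labelled with the strain C57BL/6, while the methods describe breeding with CD1 or CD1/C3H mice. GFP+ cells were sorted from the postnatal tail (about postnatal day 1 to 5) or from the adult lung (about 4 to 6 weeks of age). They were cultured for 3 weeks in NSC medium with EGF and bFGF, and single clusters were picked by hand. The picked clusters were grown on as passaged lines. The passage at which RNA was taken is not stated, nor whether it differed between tail and lung lines. The study describes such lines as clonal. It calls the samples of a group biological replicates without saying whether they came from separate clones or animals. The p-values thus measure only the spread between these samples. That spread was small, with a common coefficient of variation beyond counting error of 0.0258 over the 10 samples fitted. Very small adjusted p-values below therefore do not show that a difference would recur in other lines of the same organ. The organ of origin and the age of the mouse changed together and cannot be told apart. Brain NSCs, tail cells and lung cells of the same set (2 samples each) serve as context. As a second context, 3 samples each of Wnt1Cre-mTmG tail pNSCs and of Sox2-GFP lung pNSCs share no sample with the main comparison. In the Wnt1Cre-mTmG line, Cre driven by *Wnt1* elements switches a membrane reporter from Tomato to GFP in cells of the neural crest and dorsal neural tube lineage, and in the Sox2-GFP line GFP follows *Sox2*. Again per the study's text, the Wnt1Cre-mTmG tail pNSCs came from the postnatal tail and were Tomato+ and GFP-, thus outside the labelled lineage. The Sox2-GFP lung pNSCs came from the postnatal lung.

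Cells of the neural tube carry a positional identity. Along the body axis, *Hox* genes, which lie in the clusters A to D, are switched on in the order of their place in the cluster, with low numbers reaching far forward and high numbers kept to the trunk and tail, while *Otx*, *Six3* and *En* genes mark the forebrain, midbrain and anterior hindbrain. Across the dorsoventral axis, Sonic hedgehog favours ventral genes such as *Nkx6-1*, and BMP and Wnt signals favour dorsal genes such as *Pax3* and *Zic1*. NSC cultures are known to retain part of this code.

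The total counts were 17843898 and 20350715 in the tail pNSCs and 21402778 and 18009594 in the lung pNSCs. Levels are given in cpm, which are counts scaled to library size after TMM normalization, and 3 counts, taken as the smallest detectable amount, stood for 0.134 to 0.163 cpm. Of 28244 genes, 16948 passed the filter on low counts and were tested with edgeR's quasi-likelihood test. Genes with a Benjamini-Hochberg adjusted p under 0.05 and a log2 fold change of at least 1 in either direction are called higher or lower. Between tail and lung pNSCs, 848 genes (5%) were higher in tail pNSCs and 1332 (7.86%) were higher in lung pNSCs, and the median log2 fold change of all genes tested was 0. In the same fit, tail cells and lung cells differed in 3471 genes (20.5%) higher in tail cells and 3885 (22.9%) higher in lung cells.

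The label NSC was checked against markers of the cell types that a culture from these tissues could hold. *Sox2*, a transcription factor of NSCs, stood at 267 and 262 cpm in tail pNSCs and at 287 and 283 cpm in lung pNSCs. *Olig2*, a regulator of ventral progenitors and oligodendrocyte precursors, stood at 1099.6 and 1130.2 cpm in tail pNSCs and at 1186 and 1140.1 cpm in lung pNSCs. *Pax6* and *Fabp7*, which mark radial glia and neural progenitors, had log2 fold changes of 0.09 and 0.18 and were not called. The defining markers of lung epithelium (*Nkx2-1*, *Scgb1a1*), epidermis (*Krt5*, *Krt14*) and microglia and macrophages (*Aif1*), and the neuronal marker *Stmn2*, had 0 counts in all 4 samples. *Sftpc*, *Epcam*, *Ptprc*, *Lyz2* and *Trp63* were at no more than a few counts in any sample, and no direction is read from them. *Col1a1*, the main collagen of fibroblasts, stood at 2.17 and 1.63 cpm in tail pNSCs and at 1.21 and 1.16 cpm in lung pNSCs.

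**Figure D1:**
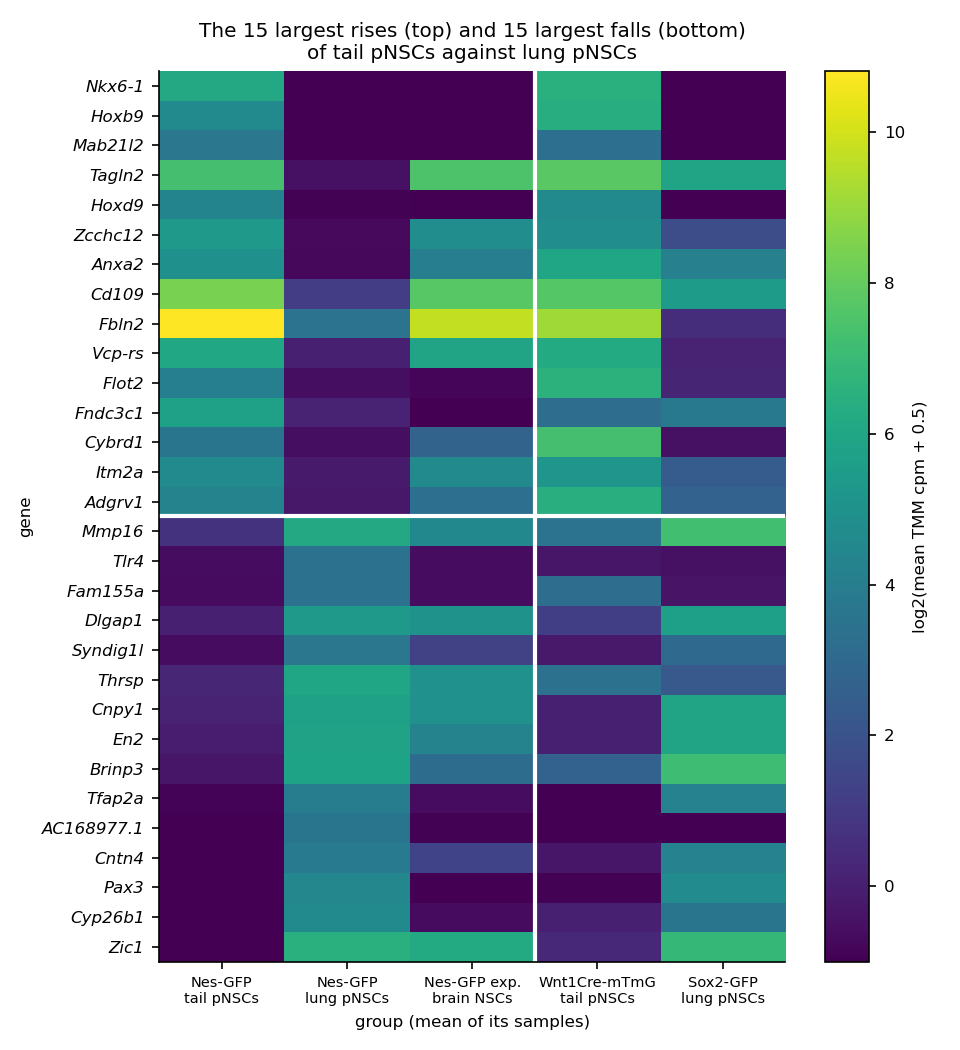
Heat map of log2 mean cpm (with 0.5 added, colour scale at the right) for the 15 largest rises (top) and 15 largest falls (bottom) of tail pNSCs against lung pNSCs, 1 gene a row, with 1 column for each of Nes-GFP tail pNSCs, Nes-GFP lung pNSCs, brain NSCs, Wnt1Cre-mTmG tail pNSCs and Sox2-GFP lung pNSCs. *Zic1*, *Pax3* and *En2* are dark in the Nes-GFP and Wnt1Cre-mTmG tail pNSCs and bright in the Nes-GFP and Sox2-GFP lung pNSCs, and *Nkx6-1*, *Hoxb9* and *Hoxd9* are the reverse.

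Patterning genes were among the 15 largest changes in each direction. *Nkx6-1*, a homeobox gene of the ventral neural tube, stood at 68.1 and 70.5 cpm in tail pNSCs and had 0 counts in both lung pNSC samples, at least 475-fold higher in tail pNSCs. In such bulk samples, fewer cells that express a gene and less RNA of it per cell cannot be told apart. *Hoxb9*, a posterior *Hox* gene, stood at 25.4 and 22.7 cpm in tail pNSCs against 0 counts in lung pNSCs, at least 165-fold higher. *Zic1*, a zinc finger gene of the dorsal neural tube, had 0 counts in both tail pNSC samples and stood at 88.4 and 88.3 cpm in lung pNSCs, at least 576-fold higher in lung pNSCs. The rule for the largest changes took only genes in which the groups did not overlap, so the lack of overlap in these genes is no result. *Pax3*, a paired-box gene of the dorsal neural tube and neural crest, was not read in tail pNSCs (0 counts) and stood at 22.9 and 20.2 cpm in lung pNSCs, at least 140.2-fold higher there. *En2*, an engrailed gene of the midbrain and anterior hindbrain, stood at 0.759 and 0.192 cpm in tail pNSCs and at 56.1 and 53.4 cpm in lung pNSCs (log2 fold change -6.88, SE 0.169). Tail pNSCs were at or near the floor for *Zic1*, *Pax3* and *En2*, and lung pNSCs for *Nkx6-1* and *Hoxb9*.

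The promoters of *Nkx6-1* (0 counts in lung pNSCs), the posterior *Hox* gene *Hoxd9* (1 count in lung pNSCs) and *Zic1* (0 counts in tail pNSCs) are shown. These genes were read at high level in either tail or lung pNSCs and at or near 0 counts in the other group. The sequences are RefSeq's on GRCm38.p6, read 5′ to 3′ on the strand of the gene from 250 bases before to 50 bases after its start, and capitals mark CG dinucleotides. *Nkx6-1* lies on the minus strand at chr5:101664662-101664961, *Hoxd9* on the plus strand at chr2:74697513-74697812 and *Zic1* on the minus strand at chr9:91365719-91366018.
Nkx6-1: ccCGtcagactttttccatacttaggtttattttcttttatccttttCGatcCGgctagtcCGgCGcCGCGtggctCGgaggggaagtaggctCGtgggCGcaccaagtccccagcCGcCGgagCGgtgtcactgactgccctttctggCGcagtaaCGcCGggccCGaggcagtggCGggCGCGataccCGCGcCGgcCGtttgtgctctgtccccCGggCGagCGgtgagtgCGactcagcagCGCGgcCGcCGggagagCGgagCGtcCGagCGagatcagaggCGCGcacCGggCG
Hoxd9: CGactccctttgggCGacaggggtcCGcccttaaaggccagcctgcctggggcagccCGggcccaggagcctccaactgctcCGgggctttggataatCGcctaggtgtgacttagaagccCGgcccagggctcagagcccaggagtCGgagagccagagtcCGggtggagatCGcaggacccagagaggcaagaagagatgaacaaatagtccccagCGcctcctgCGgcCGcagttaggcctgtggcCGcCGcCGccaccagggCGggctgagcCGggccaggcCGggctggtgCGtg
Zic1: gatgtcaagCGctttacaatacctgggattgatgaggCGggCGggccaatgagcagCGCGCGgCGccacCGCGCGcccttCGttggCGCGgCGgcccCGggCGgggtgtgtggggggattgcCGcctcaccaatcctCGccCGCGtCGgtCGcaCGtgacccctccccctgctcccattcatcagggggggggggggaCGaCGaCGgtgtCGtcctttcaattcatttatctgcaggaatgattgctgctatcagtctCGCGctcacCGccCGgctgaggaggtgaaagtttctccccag
The *Nkx6-1* window held 40 CG dinucleotides, an observed to expected ratio of 1.18, higher than in 98.8% of the 12886 tested genes with such an entry. The *Zic1* window held 31 CG (ratio 0.969, at the percentile 85.8) and the *Hoxd9* window 20 CG (ratio 0.573, at the percentile 34.2). No property of these windows was tested for a part in the difference.

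Genes of this on or off kind were counted by a fixed limit, with at most 3 counts in both samples of one pNSC group and at least 5 cpm in both of the other. There were 11 such genes read in tail pNSCs only and 14 read in lung pNSCs only. Of the 11, 7 were also at or under 3 counts in both brain NSC samples, which were *Nkx6-1*, *Hoxb8*, *Hoxb9*, *Hoxb13*, *Hoxd9* and *Mab21l2*, a gene of eye and midbrain development, and the Y-linked gene *Ddx3y*. Of the 14, 2 were at or under 3 counts in brain NSCs. Among all 16948 genes tested, 2846 were at or under 3 counts in both brain NSC samples. At 5 cpm or more in both brain NSC samples were 3 of the 11, 3 of the 14 and 10302 of the 16948. The genes read in lung pNSCs only included *Zic1*, *Pax3*, *Tfap2a*, a transcription factor of the neural crest, *Cyp26b1*, an enzyme that breaks down retinoic acid, *Cntn4*, an axonal cell adhesion protein, *Pou4f1*, a sensory neuron transcription factor, and *Tlr4*, a receptor for bacterial lipopolysaccharide. Of these, *Tfap2a*, *Cyp26b1* and *Tlr4* also lay near the limit of 3 counts in brain NSCs, at means of 0.166, 0.142 and 0.165 cpm. Of these 25 genes, 18 had a promoter entry, and the median observed to expected CG ratio was 0.667 for 8 genes read in tail pNSCs only and 0.585 for 10 read in lung pNSCs only, beside 0.719 for all 12886.

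Of the 39 *Hox* genes, 36 were tested, 14 were higher in tail pNSCs and 0 were higher in lung pNSCs, with a median log2 fold change of 2.30 beside the median of 0 and the 5% called higher among all genes tested. DESeq2 called the same numbers, and 2 *Hox* genes were lower in tail pNSCs at an unadjusted p under 0.05, both by less than the fold limit. The 14 were *Hoxa9* and *Hoxa10*, *Hoxb2*, *Hoxb3*, *Hoxb4*, *Hoxb7*, *Hoxb8*, *Hoxb9* and *Hoxb13*, and *Hoxd3*, *Hoxd4*, *Hoxd8*, *Hoxd9* and *Hoxd10*. In lung pNSCs, 10 of the 14 had 0 counts in both samples.

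The clusters differed from each other. In cluster A, 6 of 11 genes stood at 1 cpm or more in both lung pNSC samples and 8 of 11 in both tail pNSC samples. In cluster B, all 10 genes had 0 counts in both lung pNSC samples and in both brain NSC samples, and 7 were higher in tail pNSCs. In cluster C, all 9 genes had 0 counts in lung pNSCs and 7 of 9 had 0 counts in tail pNSCs, while all 9 stood at a mean of 1 cpm or more in tail cells. In cluster D, 6 of 9 genes had 0 counts in lung pNSCs and 5 were higher in tail pNSCs.

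**Figure D2:**
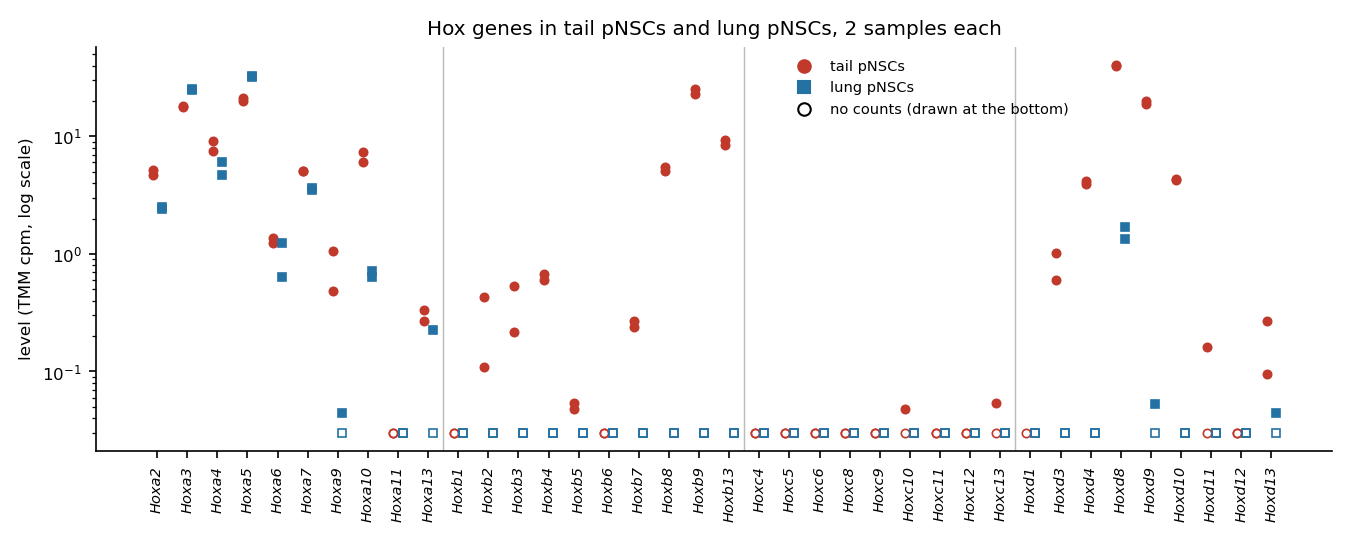
Level in cpm (log axis) of *Hox* genes, ordered by cluster and number, with 1 filled point for each tail pNSC sample (circles) and lung pNSC sample (squares), and open points at the bottom for samples with no counts. *Hoxa2* to *Hoxa7* have points from both groups, all 10 cluster B genes have open points in lung pNSCs, and cluster C lies at or near 0 counts in both groups.

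*Hoxd8* stood at 39.3 and 40.1 cpm in tail pNSCs and at 1.34 and 1.69 cpm in lung pNSCs (log2 fold change 4.72, SE 0.136, adjusted p = 1.02e-258). *Hoxd9* stood at 18.98 and 20.1 cpm in tail pNSCs and at 0 and 0.0527 cpm (a single count) in lung pNSCs, a ratio of 742 with a counting interval from 133 to 29334. *Hoxb13*, the most posterior gene of cluster B, stood at 9.33 and 8.41 cpm in tail pNSCs and had 0 counts in lung pNSCs, at least 60.7-fold higher. The tail pNSC samples were high and the lung pNSC samples at or near 0 in each. *Hoxd4* (3.96 and 4.13 cpm), *Hoxd10* (4.28 and 4.37 cpm) and *Hoxb8* (5.04 and 5.53 cpm) were read in tail pNSCs at intermediate level, with 0 counts in lung pNSCs. *Hoxa10* stood at 6.02 and 7.31 cpm in tail pNSCs and at 0.715 and 0.632 cpm in lung pNSCs (log2 fold change 3.29, SE 0.258, adjusted p = 3.27e-36). The remaining called genes lay at or under 1.06 cpm in every tail pNSC sample. *Hoxd3* and *Hoxd4* overlap on the same strand, so that reads of one can be counted for the other. *Hoxb2*, with 2 and 9 counts in tail pNSCs, was not called without Tail-pNSC replicate 2 (adjusted p = 0.114).

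The anterior genes of cluster A were read in both pNSC groups. *Hoxa5* stood at 20.01 and 21.2 cpm in tail pNSCs and at 31.9 and 32.4 cpm in lung pNSCs (log2 fold change -0.64, SE 0.0817, adjusted p = 3.34e-14). *Hoxa3* stood at 17.8 and 18.0 cpm in tail pNSCs and at 25.0 and 25.2 cpm in lung pNSCs (log2 fold change -0.49, SE 0.0953, adjusted p = 1.11e-06). The lung pNSC samples were higher than the tail pNSC samples in both genes, by less than the fold limit. *Hoxa2*, *Hoxa4* and *Hoxa7* were higher in both tail pNSC samples than in both lung pNSC samples, with log2 fold changes between 0.51 and 1.00, and none was called. Among the cofactors that bind DNA with Hox proteins and the *Cdx* genes that act upstream of them, 1 of 9 tested was higher in tail pNSCs and 0 were lower. It was *Meis2*, at 80.3 and 83.8 cpm in tail pNSCs and 18.3 and 16.8 cpm in lung pNSCs (log2 fold change 2.22, SE 0.0695, adjusted p = 2.15e-221), and brain NSCs stood at a mean of 70.5 cpm.

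Forebrain transcription factors lay on the other side, with 7 of 11 tested higher in lung pNSCs, 1 higher in tail pNSCs and a median of -1.75. *Otx1* stood at 0.651 and 0.913 cpm in tail pNSCs and at 5.27 and 5.00 cpm in lung pNSCs (log2 fold change -2.69, SE 0.269). *Nr2e1*, which maintains adult forebrain NSCs, had 0 counts in tail pNSCs and stood at 4.33 and 4.90 cpm in lung pNSCs, a rise of at least 30.1-fold. Brain NSCs stood at a mean of 38.0 cpm *Nr2e1*. *Six3* had 0 counts in tail pNSCs and stood at 2.81 and 3.58 cpm in lung pNSCs, at least 20.8-fold higher in lung pNSCs. *Sp8*, which patterns the forebrain and also the limb and tail bud, was the exception, at 1.74 and 1.78 cpm in tail pNSCs and 0.0447 and 0.0527 cpm in lung pNSCs.

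Of 16 tested genes of midbrain and hindbrain patterning, 7 were higher in lung pNSCs, 0 were higher in tail pNSCs and 9 were not called, with a median of -1.14. Besides *Zic1* and *En2*, they included *Zic4*, *En1*, *Lmx1b* and *Dmbx1*. *Zic4*, which overlaps *Zic1* on the opposite strand, had 0 counts in tail pNSCs and stood at 4.29 and 5.16 cpm in lung pNSCs, at least 30.8-fold higher in lung pNSCs. *En1* stood at 1.14 and 1.54 cpm in tail pNSCs and at 5.85 and 5.11 cpm in lung pNSCs (log2 fold change -2.02, SE 0.235). These 7 genes were picked as called, and the groups did not overlap in any of them. *Cnpy1*, which is expressed at the midbrain-hindbrain boundary and was not on this list, was among the 15 largest falls, at 0.597 and 0.625 cpm in tail pNSCs and 53.7 and 54.4 cpm in lung pNSCs (log2 fold change -6.45, SE 0.159). *Cnpy1* and *En2* are neighbours on chromosome 5.

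Of 17 tested genes of dorsoventral patterning, 4 were higher in tail pNSCs and 3 in lung pNSCs, with a median of 0.07. The 4 were *Nkx6-1*, *Nkx2-2*, *Shh* and *Dbx1*, genes of the floor plate, ventral and intermediate neural tube, and the 3 were *Pax3*, *Msx2* and *Gsx1*, genes of its dorsal side. *Nkx2-2* stood at 2.66 and 2.31 cpm in tail pNSCs and at 0.491 and 0.738 cpm in lung pNSCs (log2 fold change 2.02, SE 0.340, adjusted p = 1.16e-08). *Dbx1* stood at 0.976 and 1.01 cpm in tail pNSCs against 0 counts in lung pNSCs, and *Msx2*, a target of BMP signals, had 0 counts in tail pNSCs against 0.983 and 1.00 cpm in lung pNSCs. Apart from *Nkx6-1* and *Pax3*, these 7 genes lay under 3 cpm in every pNSC sample, and the call of *Shh* was lost without Lung-pNSC replicate 2 (adjusted p = 0.0601).

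The count of each list is to be read beside all genes tested, of which 5% were higher in tail pNSCs and 7.86% in lung pNSCs. A list whose shares lie near these shows no difference particular to it. In every list with 0 genes called in a direction, DESeq2 also called 0 in that direction. At an unadjusted p under 0.05 and any fold, the genes in that direction were 3 of 9 *Hox* cofactor and *Cdx* genes, 3 of 16 midbrain and hindbrain genes, 1 of 12 oligodendrocyte lineage genes, 1 of 14 neural crest genes, 1 of 11 Sonic hedgehog genes, 6 of 28 EGF and FGF genes, 3 of 13 timing genes, 2 of 20 proliferation genes and 1 of 28 imprinted genes. Muscle genes, with 0 called in either direction, had 1 of 10 at an unadjusted p under 0.05.

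**Figure D3:**
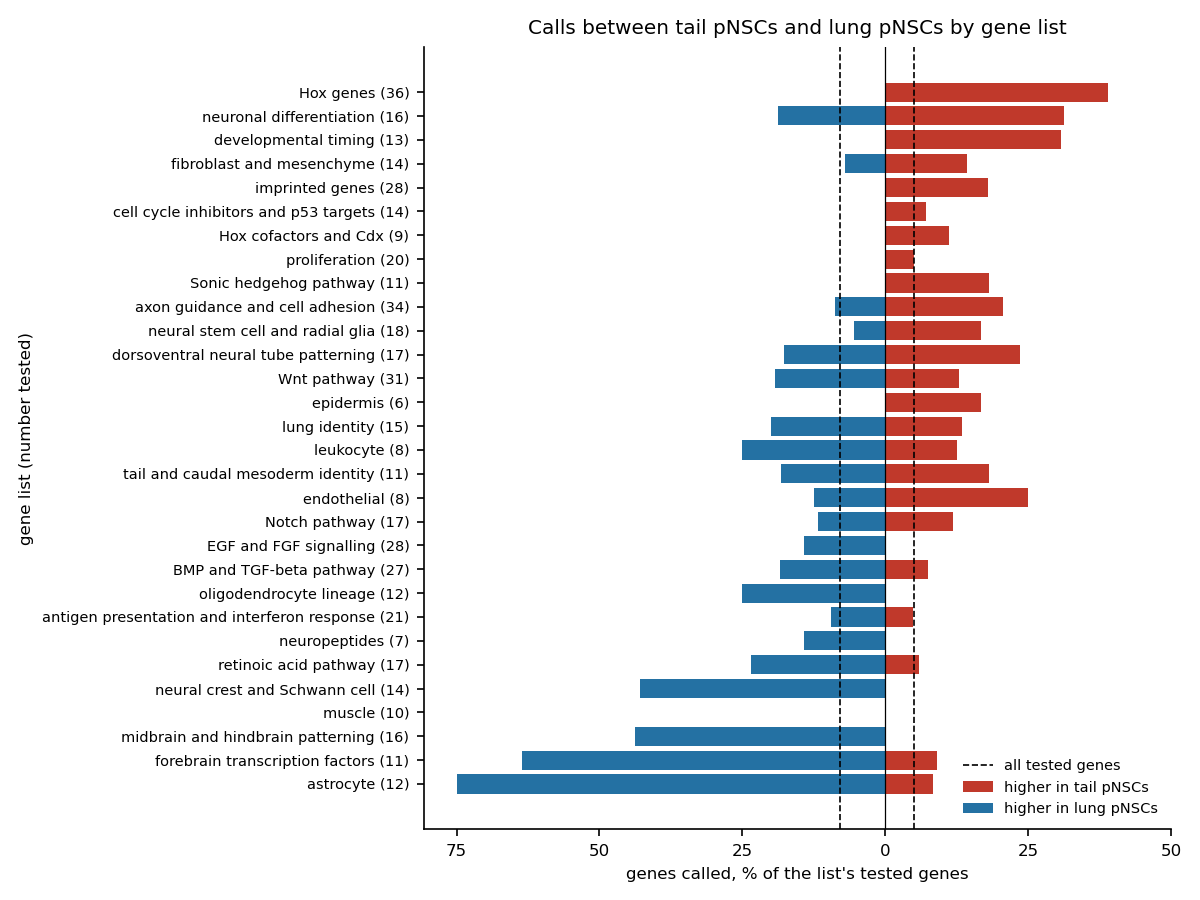
Genes called higher in tail pNSCs (bars to the right) and higher in lung pNSCs (bars to the left) as a percentage of each list's tested genes, whose number stands beside its name, with lists ordered by their median log2 fold change and dashed lines at the percentages of all tested genes. *Hox* genes, with 14 of 36 higher in tail pNSCs, are at the top and astrocyte genes, with 9 of 12 higher in lung pNSCs, are at the bottom.

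Among 18 genes of NSCs and radial glia, 14 were not called, 3 were higher in tail pNSCs and 1 was higher in lung pNSCs. *Tnc*, an extracellular matrix protein of the NSC niche, stood at 2654 and 2635 cpm in tail pNSCs and at 548 and 533 cpm in lung pNSCs (log2 fold change 2.29, SE 0.0300). *Nes*, the intermediate filament whose regulatory elements drove the sorted reporter, stood at 1856 and 1810.2 cpm in tail pNSCs and at 786 and 769 cpm in lung pNSCs (log2 fold change 1.24, SE 0.0293), with a mean of 1338 cpm in brain NSCs. *Sox1*, an early neuroectodermal gene, went the other way, at 11.6 and 14.0 cpm in tail pNSCs and 37.6 and 34.6 cpm in lung pNSCs (log2 fold change -1.49, SE 0.0909, adjusted p = 3.63e-59). Brain NSCs stood at a mean of 52.9 cpm *Sox1*. *Cd24a*, a surface glycoprotein of neural progenitors and neuroblasts, was the third gene higher in tail pNSCs, at 219.9 and 226 cpm against 88.5 and 84.0 cpm.

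Of 12 astrocyte genes, 9 were higher in lung pNSCs and 1 was higher in tail pNSCs, with a median of -2.30. Their summed level was 1175 and 1192 cpm in tail pNSCs and 3071 and 3058 cpm in lung pNSCs. *Slc1a2*, the main glutamate transporter of astrocytes, stood at 51.1 and 47.1 cpm in tail pNSCs and at 667 and 668 cpm in lung pNSCs (log2 fold change -3.77, SE 0.0404). *Atp1b2*, a subunit of the sodium pump in glia, stood at 99.9 and 97.5 cpm in tail pNSCs and at 491 and 497 cpm in lung pNSCs (log2 fold change -2.32, SE 0.0373). *S100b*, a calcium-binding protein of astrocytes, stood at 4.66 and 5.48 cpm in tail pNSCs and at 58.0 and 54.6 cpm in lung pNSCs (log2 fold change -3.47, SE 0.100). In all 3 genes both lung pNSC samples lay far above both tail pNSC samples. The filament *Gfap* was low in both groups, at 0.108 and 0.144 cpm in tail pNSCs and 2.41 and 2.58 cpm in lung pNSCs. *Gja1*, the connexin of astrocytes and radial glia, was higher in tail pNSCs at 107 and 108 cpm against 51.9 and 55.2 cpm, at a log2 fold change of 1.01 that fell to 0.97 to 0.99 under 6 alternatives, upper-quartile scaling, RLE scaling and DESeq2 among them. *Sparcl1*, a matrix protein secreted by astrocytes, was not on the list and was among the 5 most abundant genes higher in lung pNSCs, at 1188 and 1161 cpm against 374 and 378 cpm in tail pNSCs.

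In the oligodendrocyte lineage, 3 of 12 tested genes were higher in lung pNSCs and 0 in tail pNSCs, with a median of -0.30. *Cspg4*, the NG2 proteoglycan of oligodendrocyte precursors, stood at 37.7 and 36.4 cpm in tail pNSCs and at 136 and 139 cpm in lung pNSCs (log2 fold change -1.89, SE 0.0464). Neuronal genes were mixed, with 5 of 16 higher in tail pNSCs, 3 higher in lung pNSCs and a median of 0.69. *Gap43*, a growth cone protein, stood at 11.1 and 11.6 cpm in tail pNSCs and at 1.16 and 1.32 cpm in lung pNSCs (log2 fold change 3.20, SE 0.180, adjusted p = 6.09e-69). *Elavl3*, an RNA-binding protein of new neurons, went the other way, at 1.46 and 1.68 cpm in tail pNSCs and 12.6 and 15.01 cpm in lung pNSCs (log2 fold change -3.12, SE 0.187, adjusted p = 1.36e-60). *Dcx*, the microtubule protein of neuroblasts, was low in both, at 0.759 and 0.144 cpm and at 5.54 and 5.27 cpm.

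Genes of the neural crest and its Schwann cell progeny included 6 of 14 higher in lung pNSCs and 0 higher in tail pNSCs, with a median of -0.75. *Tfap2a* had 0 and 2 counts in tail pNSCs and stood at 14.7 and 15.4 cpm in lung pNSCs, a ratio of 314 with a counting interval from 86.5 to 2597. *Cdh19*, a cadherin of the Schwann cell lineage, stood at 1.08 and 0.625 cpm in tail pNSCs and at 47.1 and 47.4 cpm in lung pNSCs (log2 fold change -5.80, SE 0.154), and at a mean of 26.2 cpm in brain NSCs. The remaining 4, *Foxd3*, *Tfap2b*, *Twist1* and *Erbb3*, lay under 5 cpm in every pNSC sample. Both *Tfap2b* and *Erbb3* were at under 10 counts in every pNSC sample. The call of *Tfap2b* was lost without Tail-pNSC replicate 1, Tail-pNSC replicate 2 or Lung-pNSC replicate 1 (adjusted p = 0.0557 to 0.0971), and that of *Erbb3* without Tail-pNSC replicate 2 (adjusted p = 0.136) or Lung-pNSC replicate 2 (adjusted p = 0.227).

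For lists that name the organ of origin, few genes were read at a level above a few cpm. Of 15 genes of lung identity, 10 were at or under 3 counts in all 4 samples, 3 were higher in lung pNSCs and 2 in tail pNSCs. *Foxf1*, a transcription factor of lung mesenchyme and endothelium, had 0 and 1 counts in tail pNSCs and stood at 2.41 and 2.16 cpm in lung pNSCs. *Tbx2* and *Tbx3*, T-box genes of lung mesenchyme, were also higher in lung pNSCs, *Tbx2* at 0.705 and 0.625 cpm in tail pNSCs and 8.08 and 8.59 cpm in lung pNSCs. *Tbx4* and *Tbx5*, the defining T-box genes of lung mesenchyme, had 0 counts in all 4 samples. *Hopx*, a homeodomain-only protein of alveolar epithelium and also of NSCs, was higher in tail pNSCs, at 15.9 and 15.5 cpm against 0.759 and 0.685 cpm. Of 11 tested genes of tail and caudal mesoderm identity, 2 were higher in each pNSC group, and *T*, the Brachyury gene of the tail bud, stood at 1.52 and 1.54 cpm in tail pNSCs and 0.179 and 0.421 cpm in lung pNSCs (log2 fold change 2.37, SE 0.441, adjusted p = 2.67e-07). Brain NSCs stood at a mean of 1.59 cpm *T*, close to the level in tail pNSCs.

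Of the other cell type lists, 14 fibroblast genes included 2 higher in tail pNSCs and 1 in lung pNSCs. *Acta2*, smooth muscle actin, stood at 41.6 and 45.9 cpm in tail pNSCs and at 1.83 and 1.05 cpm in lung pNSCs (log2 fold change 4.89, SE 0.114), and at a mean of 32.7 cpm in brain NSCs. *Col5a2*, a fibrillar collagen chain, stood at 21.5 and 21.3 cpm in tail pNSCs and at 124 and 118 cpm in lung pNSCs (log2 fold change -2.50, SE 0.0503). The summed level of the fibroblast list was 177 and 185 cpm in tail pNSCs and 198 and 187 cpm in lung pNSCs. Muscle genes had 0 of 10 called, and 8 endothelial, 8 leukocyte and 6 epidermal genes had 3, 3 and 1 called, with summed levels under 14 cpm in every pNSC sample.

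In the Sonic hedgehog pathway, 2 of 11 genes were higher in tail pNSCs and 0 in lung pNSCs. They were the transcription factor *Gli2*, at 26.5 and 27.6 cpm against 11.8 and 11.96 cpm (log2 fold change 1.19, SE 0.0952), and the co-receptor *Cdon*, at 243 and 247 cpm against 78.2 and 77.4 cpm (log2 fold change 1.65, SE 0.0391). Among 31 Wnt pathway genes, 4 were higher in tail pNSCs and 6 in lung pNSCs. The ligands *Wnt4* and *Wnt7b* and the secreted inhibitor *Sfrp1* were on the tail side, *Sfrp1* at 61.0 and 62.4 cpm against 14.1 and 14.6 cpm (log2 fold change 2.10, SE 0.0772). The feedback target *Axin2*, at 53.9 and 53.7 cpm in tail pNSCs and 128 and 129 cpm in lung pNSCs (log2 fold change -1.25, SE 0.0486), and the R-spondin receptor *Lgr5*, at 33.8 and 35.1 cpm and 84.5 and 87.8 cpm, were on the lung side. Of the transcription factors of the pathway, *Tcf7* was higher in tail pNSCs and *Lef1* was higher in lung pNSCs.

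Among 27 genes of BMP and TGF-beta signalling, 5 were higher in lung pNSCs and 2 in tail pNSCs. The ligand *Bmp7* stood at 50.8 and 53.7 cpm in tail pNSCs and at 147 and 144 cpm in lung pNSCs (log2 fold change -1.47, SE 0.0459), and *Id2*, a target of BMP signals, at 24.2 and 23.0 cpm and at 55.5 and 53.4 cpm (log2 fold change -1.21, SE 0.0669). *Fst*, which binds and blocks activins and BMPs, was higher in tail pNSCs at 5.80 and 6.39 cpm against 1.92 and 1.26 cpm. The ligand *Tgfb2* stood at 18.1 and 19.8 cpm in tail pNSCs against 77.6 and 80.1 cpm in lung pNSCs, and the receptor *Tgfbr2* went the other way, at 57.0 and 55.1 cpm against 19.9 and 20.8 cpm. In EGF and FGF signalling, 4 of 28 genes were higher in lung pNSCs and 0 in tail pNSCs, and 2 of 28 were higher in lung pNSCs without Tail-pNSC replicate 1. *Etv4*, a target of FGF signals, stood at 108 and 113 cpm in tail pNSCs and at 226 in both lung pNSC samples (log2 fold change -1.03, SE 0.0377), near the fold limit, and its call was lost without Tail-pNSC replicate 1. Of 17 tested Notch pathway genes, 2 were higher in each pNSC group, and the receptor *Notch2* stood at 183 and 184 cpm in tail pNSCs and at 88.1 and 80.2 cpm in lung pNSCs (log2 fold change 1.12, SE 0.0390).

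In the retinoic acid pathway, 4 of 17 tested genes were higher in lung pNSCs and 1 in tail pNSCs. *Cyp26b1* had 0 counts in both tail pNSC samples and stood at 26.0 and 21.7 cpm in lung pNSCs, at least 155-fold higher in lung pNSCs, with a mean of 0.142 cpm in brain NSCs. *Aldh1a1*, an enzyme that makes retinoic acid, stood at 3.04 and 2.88 cpm in tail pNSCs and at 10.3 and 9.53 cpm in lung pNSCs (log2 fold change -1.75, SE 0.132). The receptor *Rarg* was higher in tail pNSCs, at 8.95 and 7.64 cpm against 2.41 and 2.95 cpm (log2 fold change 1.63, SE 0.151). The binding protein *Crabp1* was called from 9 counts in 1 lung pNSC sample and 1 count in 1 tail pNSC sample, and without Lung-pNSC replicate 1 its direction turned (log2 fold change 2.28).

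Genes of developmental timing, many of which fall with age in neural progenitors, had 4 of 13 tested higher in tail pNSCs and 0 in lung pNSCs, with a median of 0.55. *Igf2bp2* and *Igf2bp3*, RNA-binding proteins of fetal growth, stood at 70.4 cpm in both tail pNSC samples against 15.9 and 13.1 cpm (log2 fold change 2.27, SE 0.0783), and at 34.9 and 33.6 cpm against 5.09 and 5.37 cpm (log2 fold change 2.71, SE 0.115). *Nr2f2*, an orphan nuclear receptor of early progenitors, stood at 35.3 and 33.0 cpm in tail pNSCs and at 5.85 and 5.79 cpm in lung pNSCs (log2 fold change 2.55, SE 0.101). The tail and lung donors differed in age, and the part of age in these values was not tested. Of 20 proliferation genes, *Ccnb2* was called higher in tail pNSCs and 19 were not called, with a median of 0.26. With no fold limit, 17 of the 20 were higher in tail pNSCs and 1 was higher in lung pNSCs, beside 28.8% and 24.6% of all genes tested. The summed level was 4799 and 4830 cpm in tail pNSCs and 4214 and 4176 cpm in lung pNSCs.

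Of 28 imprinted genes, which are expressed from 1 parental copy and many of which act in fetal growth, 5 were higher in tail pNSCs and 0 in lung pNSCs, with a median of 0.45. *Mest* was also among the 5 most abundant genes higher in tail pNSCs, at 1983 and 2086 cpm against 318 and 304 cpm (log2 fold change 2.71, SE 0.0316), with a mean of 964 cpm in brain NSCs. *Grb10*, an adaptor that restrains growth signals, stood at 9.22 and 11.2 cpm in tail pNSCs and at 2.19 and 1.90 cpm in lung pNSCs (log2 fold change 2.32, SE 0.147). *Nnat*, a membrane protein of neural development, stood at 408 and 422 cpm in tail pNSCs and at 179 and 176 cpm in lung pNSCs (log2 fold change 1.22, SE 0.0343). The remaining 2, *Dlk1* and *Magel2*, lay under 4 cpm in every pNSC sample.

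Of 34 genes of axon guidance and cell adhesion, 7 were higher in tail pNSCs and 3 in lung pNSCs. The netrin receptors moved apart, with *Unc5b* at 32.3 and 30.9 cpm in tail pNSCs against 5.27 and 6.43 cpm (log2 fold change 2.44, SE 0.0940), and *Unc5c* at 0.868 and 0.721 cpm against 5.27 and 4.16 cpm (log2 fold change -2.58, SE 0.258). So did the ephrin receptors, with *Epha3* higher in tail pNSCs and *Epha4* at 14.5 and 15.5 cpm in tail pNSCs against 102 and 106 cpm in lung pNSCs (log2 fold change -2.79, SE 0.0697). Of 21 genes of antigen presentation and the interferon response, 1 (4.76%) was higher in tail pNSCs and 2 (9.52%) in lung pNSCs, near the 5% and 7.86% of all genes tested. Among 7 tested neuropeptide genes, *Calca*, which encodes calcitonin and CGRP, was the gene called, at 15.5 and 17.3 cpm in tail pNSCs and 141 and 139 cpm in lung pNSCs (log2 fold change -3.09, SE 0.0714). *Calca* had 0 counts in brain NSCs.

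Several of the 15 largest rises were genes that brain NSCs also expressed and that were near the floor in lung pNSCs. *Tagln2*, an actin-binding protein, stood at 157 and 163 cpm in tail pNSCs and at 0.268 and 0.158 cpm in lung pNSCs (log2 fold change 9.48, SE 0.112), with a mean of 184 cpm in brain NSCs. *Fbln2*, an extracellular matrix protein, stood at 1764 and 1816 cpm in tail pNSCs and at 10.9 cpm in both lung pNSC samples (log2 fold change 7.36, SE 0.0470), with a mean of 847 cpm in brain NSCs. *Cd109*, a surface co-receptor of TGF-beta, stood at 342 and 344 cpm in tail pNSCs and at 1.34 and 2.11 cpm in lung pNSCs (log2 fold change 7.66, SE 0.0723), with a mean of 215 cpm in brain NSCs. *Anxa2*, *Zcchc12*, *Vcp-rs*, *Itm2a*, *Cybrd1* and *Adgrv1* were likewise at a mean of 6 cpm or more in brain NSCs and under 0.7 cpm in each lung pNSC sample. On the log scale, brain NSCs were nearer to tail pNSCs in 9 of the 15 largest rises and in 8 of the 15 largest falls.

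Among the largest falls, *Brinp3*, a neuronal protein that slows the cell cycle, stood at 0.217 and 0.433 cpm in tail pNSCs and at 59.1 and 56.7 cpm in lung pNSCs (log2 fold change -7.42, SE 0.180). *Mmp16*, a membrane-bound metalloproteinase, stood at 1.46 and 0.865 cpm in tail pNSCs and at 73.3 and 66.6 cpm in lung pNSCs (log2 fold change -5.92, SE 0.131). *Dlgap1*, a scaffold protein of synapses, stood at 0.271 and 0.769 cpm in tail pNSCs and at 40.6 and 41.0 cpm in lung pNSCs. Brain NSCs lay between the pNSC groups in all 3, at means of 8.43, 22.5 and 32.0 cpm. *Tlr4* stood at 0.163 and 0.144 cpm in tail pNSCs and at 10.2 and 10.5 cpm in lung pNSCs, and at a mean of 0.165 cpm in brain NSCs. The most abundant genes higher in lung pNSCs were *Serpine2*, a protease inhibitor, at 5072 and 5019 cpm against 2427 and 2501 cpm, and *Igfbp2*, which binds insulin-like growth factors, at 2932 and 2879 cpm against 1034 and 1067 cpm.

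The pNSC difference was set beside that of pNSC lines that share no sample with it. The contrast of Wnt1Cre-mTmG tail pNSCs with Sox2-GFP lung pNSCs, which was added after the data had been seen, called 1968 of 17393 genes (11.3%) higher in tail pNSCs and 1340 (7.7%) higher in lung pNSCs, and it compares organs together with reporter lines. Of the 848 genes higher in Nes-GFP tail pNSCs, 418 (49.3%) had the same call in this contrast and 59 the opposite call, and the 418 were 22.3% of its 1872 genes higher in tail pNSCs among those tested in both. Of the 1332 genes higher in Nes-GFP lung pNSCs, 415 (31.2%) had the same call and 178 the opposite call, and the 415 were 31.9% of its 1301 genes. When the brain NSCs of each line were subtracted, 2400 genes (13.8%) were higher and 2082 (12%) lower, and this contrast was the one planned. In it, 360 (42.5%) of the 848 had the same call and 137 (16.2%) the opposite call, and 404 (30.3%) of the 1332 had the same call and 281 (21.1%) the opposite call. Of the 15 largest rises, 14 had the same call and 0 the opposite call by the direct contrast, and 10 and 1 with the brain NSCs subtracted. Of the 15 largest falls, 11 had the same call and 2 the opposite call by the direct contrast, and 10 and 2 with the brain NSCs subtracted.

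By the direct contrast, 26 of 36 *Hox* genes were higher in Wnt1Cre-mTmG tail pNSCs and 5 were higher in Sox2-GFP lung pNSCs. Of 11 forebrain transcription factors 1 was higher in tail pNSCs and 6 in lung pNSCs, of 16 midbrain and hindbrain genes 1 and 8, and of 17 dorsoventral genes 8 and 5. Other lists departed from the Nes-GFP lines. Astrocyte genes had 4 higher in tail pNSCs and 3 in lung pNSCs, against 1 and 9 in the Nes-GFP lines. Neural crest genes had 2 and 3 against 0 and 6, and EGF and FGF genes 8 and 4 against 0 and 4. Proliferation genes had 0 and 8 against 1 and 0. *Nkx6-1* stood at a mean of 90.5 cpm in Wnt1Cre-mTmG tail pNSCs and had 0 counts in Sox2-GFP lung pNSCs, and *Hoxb9* at 81.2 cpm and 0 counts. *Zic1* stood at 0.782 cpm in Wnt1Cre-mTmG tail pNSCs and 118 cpm in Sox2-GFP lung pNSCs, *Pax3* at 0.0307 and 25.4 cpm and *En2* at 0.521 and 58.6 cpm. All 5 were called in the same direction as in the Nes-GFP lines. *Sox1*, lower in Nes-GFP tail pNSCs, stood at 86.3 cpm in Wnt1Cre-mTmG tail pNSCs and 8.79 cpm in Sox2-GFP lung pNSCs (log2 fold change 3.30). *Gfap*, also lower in Nes-GFP tail pNSCs, stood at 21.5 and 5.76 cpm in these lines. *Nes* stood at 905 and 733 cpm (log2 fold change 0.30), the same direction as in the Nes-GFP lines at a size under the fold limit. *Slc1a2*, at 328 and 341 cpm (log2 fold change -0.06), hardly differed, unlike in the Nes-GFP lines. *Tlr4* was under 0.4 cpm in both lines. *Tagln2* stood at 219 cpm in Wnt1Cre-mTmG tail pNSCs and 58.8 cpm in Sox2-GFP lung pNSCs (log2 fold change 1.90) and *Cd109* at 206 and 45.9 cpm (log2 fold change 2.17), both called higher in tail pNSCs as in the Nes-GFP lines, where lung pNSCs were near the floor.

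Tail cells and lung cells were compared in the same fit. Of the 848 genes higher in tail pNSCs, 288 (34.0%) were also called higher in tail cells, which were 8.30% of the 3471 genes so called, and 262 (30.9%) were called higher in lung cells. Of the 1332 genes higher in lung pNSCs, 438 (32.9%) were higher in lung cells, 11.3% of the 3885 so called, and 368 (27.6%) were higher in tail cells. The difference of the differences was called in 2444 genes (14.4%) in the direction of tail pNSCs and 2755 (16.3%) in the other. The posterior *Hox* genes were read in tail cells, *Hoxb9* at a mean of 45.5 cpm, *Hoxd8* at 84.4 cpm and *Hoxb13* at 37.1 cpm, while *Nkx6-1* stood at 1.65 cpm. *Zic1* stood at 10.6 cpm in tail cells and had 0 counts in lung cells, the reverse of the pNSCs.

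A shift by chromosome ran through the comparison. Over 599 genes of chromosome 1 with a mean of at least 5 cpm, the median log2 difference of tail minus lung pNSCs was -0.40, a ratio of 0.755, and 511 of them (85.3%) were lower in tail pNSCs. Over 9395 genes of the other autosomes the median was 0.08 and 41.5% were lower, and the medians of autosomes 2 to 19 lay between -0.03 and 0.11. The low end was chromosome 11, and the next lowest median was 0.07, on chromosome 18. Relative to brain NSCs, chromosome 1 stood at -0.31 and -0.30 in the tail pNSC samples and at 0.09 and 0.08 in the lung pNSC samples. Chromosome 11 stood at 0.059 and 0.088 in the tail pNSC samples and at 0.097 and 0.095 in the lung pNSC samples. On the autosomes other than 1 and 11, the lung pNSC samples lay between -0.09 and 0.01. In windows of 10 Mb along chromosome 1 with at least 20 genes, all 12 medians were below 0, from -0.53 to -0.25. The median of the same genes was 0.15 between tail and lung cells and -0.07 between the Wnt1Cre-mTmG tail and Sox2-GFP lung pNSCs. Of 1022 tested genes on chromosome 1, 146 (14.3%) were called lower and 41 (4.01%) higher in tail pNSCs, beside 7.45% and 5.03% on the other autosomes. DNA copy number was not measured, and its part in these values was not tested. *Pax3*, *Brinp3*, *Cdh19*, *Tfap2b*, *Col5a2*, *Tgfb2*, *En1*, *Epha4*, *Serpine2* and *Igfbp2*, all lower in tail pNSCs, and *Tagln2* and *Gli2*, higher in tail pNSCs, lie on chromosome 1, and the log2 fold changes of *Serpine2* (-1.03) and *Igfbp2* (-1.47) are to be read beside the chromosome's median of -0.40. Without the genes of chromosome 1, 1993 genes were called, 4 rather than 6 neural crest genes were lower in tail pNSCs, and 0 rather than 1 fibroblast gene was, the 1 being *Col5a2*. Other lists also lost genes lower in tail pNSCs. Among them, midbrain and hindbrain genes fell from 7 to 6 and dorsoventral genes from 3 to 2. BMP and TGF-beta genes fell from 5 to 4, axon guidance genes from 3 to 2 and antigen presentation genes from 2 to 1.

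**Figure D4:**
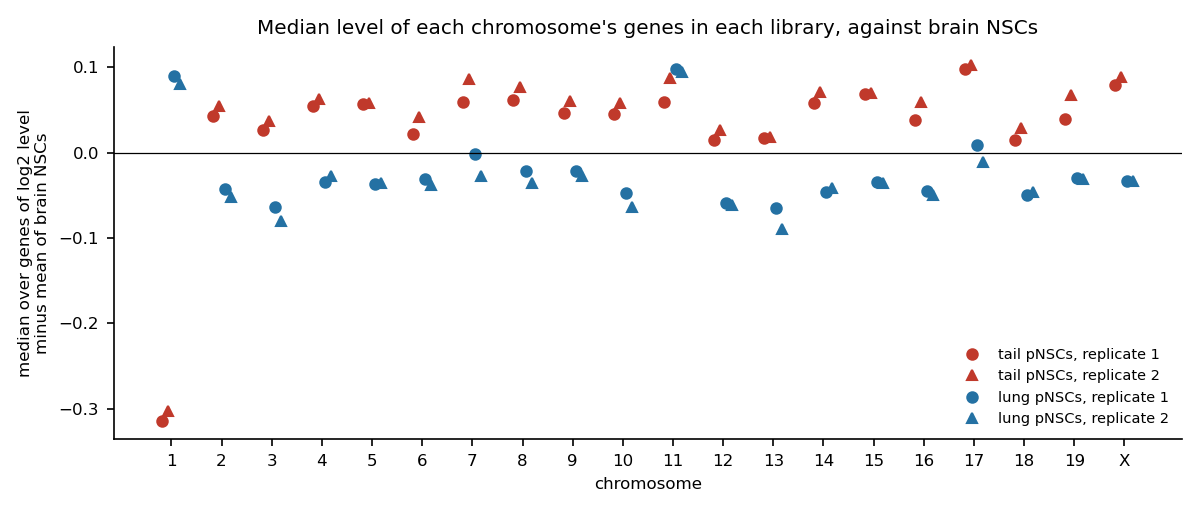
Median over the genes of each chromosome (x axis) of the log2 level minus the mean of brain NSCs (y axis), with 1 point for each of the 2 tail pNSC and 2 lung pNSC samples. On chromosome 1 the tail pNSC samples lie at -0.31 and -0.30 and the lung pNSC samples at 0.09 and 0.08. On chromosome 11 the lung pNSC samples lie at 0.097 and 0.095.

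Transcripts of the sex chromosomes also differed between the pNSC groups. *Ddx3y*, *Eif2s3y*, *Kdm5d* and *Uty*, genes of the Y chromosome, summed to 281 and 308 counts in the tail pNSC samples and 0 counts in both lung pNSC and both brain NSC samples. The tail pNSC sums were 15.7 and 15.1 cpm of the total counts, beside 90.7 to 94.7 in the Wnt1Cre-mTmG tail pNSCs and 237 to 242 in the Sox2-GFP lung pNSCs. *Xist*, which silences an X chromosome in female cells, had 27812 and 29879 counts in the tail pNSC samples and 38373 and 33639 in the lung pNSC samples, so that both kinds of transcript were read in the tail pNSC libraries. Both were also read in the Wnt1Cre-mTmG tail pNSCs, with *Xist* at 1111 to 1210 cpm of the total counts, while *Xist* was under 1 cpm in the Sox2-GFP lung pNSCs. The part of the donors' sex in the other results was not tested.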

How the data were processed

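RNA-seq libraries were made from polyA-selected RNA with a NEBNext Ultra kit and read single-end on a NextSeq500. Per the study's methods and the submitters' processing notes, the authors aligned reads to GRCm38 with HISAT2, used Cufflinks and HTSeq, and deposited raw counts per gene, which are whole numbers with no normalization. The strand setting and annotation release are not given in the sources used here, so reads of overlapping genes cannot be told apart. Of 171 called genes that the rule below names, 86 overlap another annotated gene on either strand, among them *Zic1* and *Zic4*, *Hoxd3* and *Hoxd4*, *Mab21l2* and *Lrba*, *S100b* and *Dip2a*, *Mest* and *Copg2*, and *Nnat* and *Blcap*. All 28 sample columns matched a sample title. The labels give tail and lung pNSCs without the reporter line, which was taken from the study's text.

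Counts were fitted with edgeR 4.0.16 in R 4.3.3 (filterByExpr with a minimum count of 10 and a minimum total of 15, TMM, glmQLFit and glmQLFTest) over the 5 groups of 2 samples, which share 1 estimate of the spread, since the study's methods name no test for these counts. The other lines were fitted over all 28 samples. The tests were two-sided. Levels are TMM-scaled cpm, and a gene's length was not used, so levels are compared between samples and not between genes. Where a group had 0 counts, the fold is a lower bound computed against 3 counts per library, where it had 1 to 3 counts in all, the ratio has an exact 95% counting interval, and where both groups were that low no fold is given. Such intervals and floors cover counting error only. For many called genes the standard error is given without the adjusted p, which was under 0.05 for each by the rule for calling.

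Named genes were called members of gene lists (or markers needed to say that they were not called), the 15 largest rises and 15 largest falls among called genes with no overlap between groups and a mean of at least 5 cpm, and the 5 most abundant called genes in each direction. The members and the lists were chosen with earlier results of these data known. Not every gene the rule selects is named, and some genes that the lists count are not reported here. Medians by chromosome used log2 of cpm with 0.5 added. Positions came from GENCODE on GRCm38 by symbol (17266 of 17393 genes matched) and promoters from RefSeq. The alternatives were DESeq2 1.42.0, other scalings, filters, fold limits and sample sets, replicate number as a block and leaving out each replicate. The scripts were tested on simulated counts. Figures were drawn with matplotlib 3.10.9 in Python 3.11.15.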

Additional observations from a re-analysis of the deposited data

Results flagged for a closer look

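For 31 genes named above, the difference of tail minus lung went in opposite directions in pNSCs and in tissue cells, each called with edgeR, and the difference between the 2 effects was itself called as an interaction in the same fit. The values are the log2 difference of tail minus lung in pNSCs minus that in tail and lung cells. Where a group has 0 counts, the fitted size depends on the prior count of the fit and is no bound. The 31 were taken from the genes named, so their split is not that of all genes. Over all called genes, with no interaction required, 262 of 848 higher in tail pNSCs were higher in lung cells. In the other direction, 368 of 1332 higher in lung pNSCs were higher in tail cells. Of the 31, 25 were lower in tail pNSCs and higher in tail cells. These were the patterning genes *Zic1* (-24.41), *Zic4* (-17.38), *Pax3* (-20.59), *En1* (-13.29) and *Msx2* (-16.31), the neural crest genes *Tfap2a* (-15.29), *Tfap2b* (-18.07), *Foxd3* (-12.83), *Twist1* (-10.08) and *Cdh19* (-8.00), and the neural genes *Brinp3* (-13.65), *Dlgap1* (-9.11), *Dcx* (-7.16), *Elavl3* (-5.14), *S100b* (-8.28) and *Cspg4* (-5.01). They further included the signalling genes *Lef1* (-5.81), *Lgr5* (-6.13), *Bmp7* (-6.39), *Tgfb2* (-3.12), *Etv4* (-7.11) and *Crabp1* (-7.69), and the matrix and protease genes *Mmp16* (-10.36), *Serpine2* (-2.55) and *Col5a2* (-4.85). The other 6 were higher in tail pNSCs and lower in tail cells, namely *Nes* (3.11), *Hoxb4* (7.72), *Meis2* (3.65), *Shh* (4.50), *Hopx* (7.17) and *Nr2f2* (4.64). With *Nes*, tail cells stood at a mean of 76.0 cpm and lung cells at 278 cpm, the reverse order of the pNSCs.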

How the results depend on the processing

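Between tail and lung pNSCs, 2180 genes were called, and the count was 2018 with DESeq2, 2203 with upper-quartile and 2204 with RLE scaling, 2206 with no filter, 1886 with a fit of the 2 groups alone, 2224 with all 28 samples and 1993 without the genes of chromosome 1. Leaving out each replicate gave 2019 to 2053. It moved to 9036 with no fold limit (4873 higher in tail pNSCs and 4163 lower, 53.9% higher against 38.9% among the 2180), to 1274 when the fold limit was tested with glmTreat and to 1297 at a mean count of at least 100. With no fold limit the count was 13910 for tissue cells, 10445 for the interaction, 8318 for tail pNSCs and 6835 for lung pNSCs against brain NSCs, and 10536 for the other lines. At a mean count of at least 100 it was 4196 for tissue cells, 1106 for tail pNSCs and 842 for lung pNSCs against brain NSCs, and with glmTreat the last 2 were 956 and 721. *Hox* genes higher in tail pNSCs numbered 8 at a mean count of at least 100, since fewer were tested, and 10 to 18 under the other settings. Among the named genes, *Crabp1* turned direction without Lung-pNSC replicate 1 and *Trp63* fell to a log2 fold change of 0 without Tail-pNSC replicate 2, both at a few counts, and their log2 fold changes ran from -5.09 to 2.28 and from 0 to 4.94 when each replicate was left out.

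The deviations of same-numbered tail and lung pNSC samples correlated at r = -0.0145 across genes, and the range over all pairs of groups was -0.0226 to 0.0196. Squared differences between replicates were on average 2.17 (tail pNSCs) and 1.61 (lung pNSCs) times those of counting error alone. Counting error is independent between samples and weakens such correlations, so these values cannot show whether replicate numbers paired the samples. With replicate number as a block, 2107 genes were called, and of the named genes *Ptprc* and *Trp63*, at the floor in both groups, lost their call. With 2 samples a group, genes under about 1 cpm rest on few counts.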
